A study of Mus musculus with 12 samples.

Results

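The conjugation enzymes described here are the UDP-glucuronosyltransferases (UGT), the glutathione S-transferases (GST) and the sulfotransferases (SULT). They were taken as all rows of the deposited gene table that are annotated as protein coding and whose symbols begin with Ugt and a digit, with Gst followed by one of the class letters a, m, p, t, k, o or z and a digit, or with Sult and a digit. This gave 65 genes of the 54532 in the table, 22 UGT, 22 GST and 21 SULT genes, chosen by symbol. The 12 libraries, 3 in each of 4 groups, were made from poly(A) RNA of the livers of C57/BL6J mice of wild-type genotype. The groups were sham-operated mice, for which no hour is given, and mice 3 h, 6 h and 12 h after removal of 70% of the liver. For 6 h replicate 3 the labels give 7 h as the time but 6 h in the title, which was used. The sex and age of the mice are not given in the labels used here. Whether each library stands for its own mouse is not stated, so p-values measure only the spread between these libraries, which may be technical.

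Conjugation is the second step of detoxification. UGT enzymes sit in the membrane of the endoplasmic reticulum and join glucuronic acid, taken from UDP-glucuronic acid, to bilirubin, steroids, bile acids and drugs. GST enzymes join glutathione to reactive electrophiles, and SULT enzymes pass a sulfate group from PAPS, the activated form of sulfate, to phenols, steroids and bile acids. Hepatocytes are the main site of all these reactions, and exporters then carry the conjugates into bile or blood. The design follows these genes through the first hours after resection.

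Library totals ran from 15573405 to 17199639 counts. Sham replicate 1 stood apart, with 11.9% of its counts on mitochondrially encoded genes against 6.26% and 5.52% in the other sham libraries. Of the tested members it held the highest sham level for 13 of 15 UGT and 5 of 7 SULT genes and the lowest for 11 of 20 GST genes. In the 3 h group, replicate 2 was the lowest library for 17 of 20 tested GST genes. The labelled tissue was checked against 10 hepatocyte markers, whose FPKM (fragments per kilobase of transcript, scaled to depth) summed to 38771 to 40901 in sham libraries, while the 6 B and T cell markers summed to at most 1.30 in any library.

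A member was tested if it reached 1 FPKM in at least 3 of the 12 libraries, as did 11451 genes of the whole table. That held for 42 members, 15 UGT, 20 GST and 7 SULT genes, and 38 of these had a library at 1 FPKM or more in each of the 4 groups. The other 4, Ugt1a6a, Gsta1, Sult1c2 and Sult1e1, entered the test through the groups where they are high, so their differences are given as a description, with no p, and counts are also given for the 38. The other 23 members never exceeded 1.65 FPKM, the level of Sult2a7 in a 12 h library. Of these, 9 had no count in any library (Ugt2a1, Ugt2a2, Gstt4, Sult1c1, Sult2a3, Sult2a4, Sult2a5, Sult3a2 and Sult6b2), where 3 counts over all libraries would be 0.0154 CPM (counts scaled to depth). The remaining 14 untested genes, among them Ugt8a, which makes the brain lipid galactosylceramide, and Sult4a1, had at least 1 count. The floors cover counting error only.

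On the FPKM scale, which is per gene length, a few members made up most of each family. Ugt2b5, Ugt2b1 and Ugt2b36 held 65.1% of the UGT sum over the 12 libraries. Gstp1, Gstm1 and Gsta3 held 77.7% of the GST sum, and Sult1a1, Sult2a8 and Sult1d1 held 97.6% of the SULT sum. The summed UGT level was 1642 ± 315 FPKM in sham libraries (SD, n = 3 libraries here and in all groups), 1367 ± 156 at 3 h, 1068 ± 101 at 6 h and 1043 ± 96.9 at 12 h. For GST genes the sums were 2606 ± 441, 2787 ± 459, 2277 ± 49.01 and 1334 ± 204 FPKM in the same order. On this scale the GST total lay near the sham level until 6 h and was lowest at 12 h. The SULT sums were 565 ± 201, 552 ± 97.5, 638 ± 45.2 and 674 ± 50.1 FPKM, and the ranges of all 4 groups overlapped. As shares of each library's counts the courses differed. In the same order of groups, GST genes held 0.399% to 0.512%, 0.349% to 0.465%, 0.283% to 0.326% and 0.213% to 0.264% of counts. UGT genes held 0.403% to 0.528%, 0.288% to 0.338%, 0.204% to 0.243% and 0.259% to 0.312%. SULT genes held 0.138% to 0.250%, 0.104% to 0.133%, 0.106% to 0.121% and 0.134% to 0.148%.

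**Figure D1:**
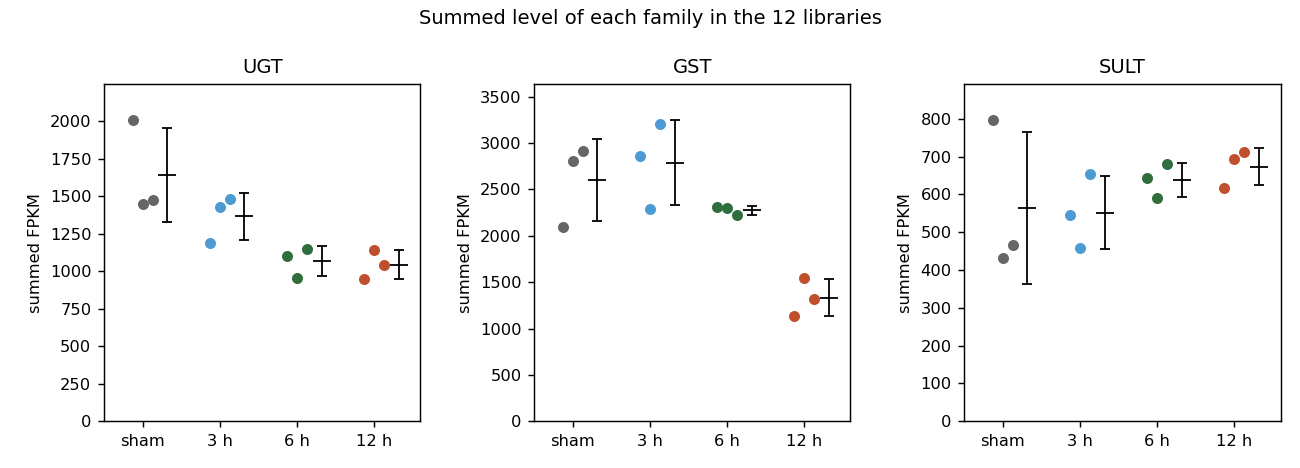
Summed FPKM of all UGT, GST and SULT genes (y axis) in the sham, 3 h, 6 h and 12 h groups (x axis); each point is a library, and the bar beside the points is the mean ± SD of 3 libraries. The 12 h libraries lie lowest for GST, with sums between 1138 and 1545 FPKM, and sham replicate 1 is the highest library for UGT and SULT.

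Over the members the changes were mostly falls, and more of them passed at each later time. At 3 h, 2 of the 42 tested members rose and 5 fell, against 9.81% of all tested genes called higher and 11.7% called lower. The 5 falls at 3 h are thus near the share of all tested genes. At 6 h, 2 rose and 14 fell, with a background of 16.8% higher and 18.2% lower. At 12 h, 2 rose and 24 fell, against 13.5% and 15.3% of all tested genes. Over the 38 members present in every group, 1 rose and 3 fell at 3 h, 1 rose and 12 fell at 6 h, and 1 rose and 23 fell at 12 h. The median log2 difference of the 42 members from sham was -0.21 at 3 h, -0.31 at 6 h and -0.73 at 12 h, beside -0.02, -0.01 and -0.02 for all tested genes, and 39 of the 42 lay below 0 at 12 h. In the test of any difference over the 4 groups, 33 of 42 members passed (11 of 15 UGT, 16 of 20 GST and 6 of 7 SULT genes), with a background of 50.0%. The 33 include Ugt1a6a, Gsta1, Sult1c2 and Sult1e1. For these 4 the result is a description only, as they entered through the groups where they are high. All counts so far are from the edgeR quasi-likelihood test at an adjusted p under 0.05. With libraries scaled to their total counts, the median log2 difference of all tested genes was -0.20 at 3 h and -0.32 at 6 h, and 2 members were higher and 11 lower at 3 h. Leaving out 3 h replicate 2 gave 7 higher and 3 lower members at 3 h. Without sham replicate 2, sham replicate 3 or 3 h replicate 3 in turn, 1 member was higher at 3 h, and without 12 h replicate 3 1 member was higher at 12 h.

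**Figure D2:**
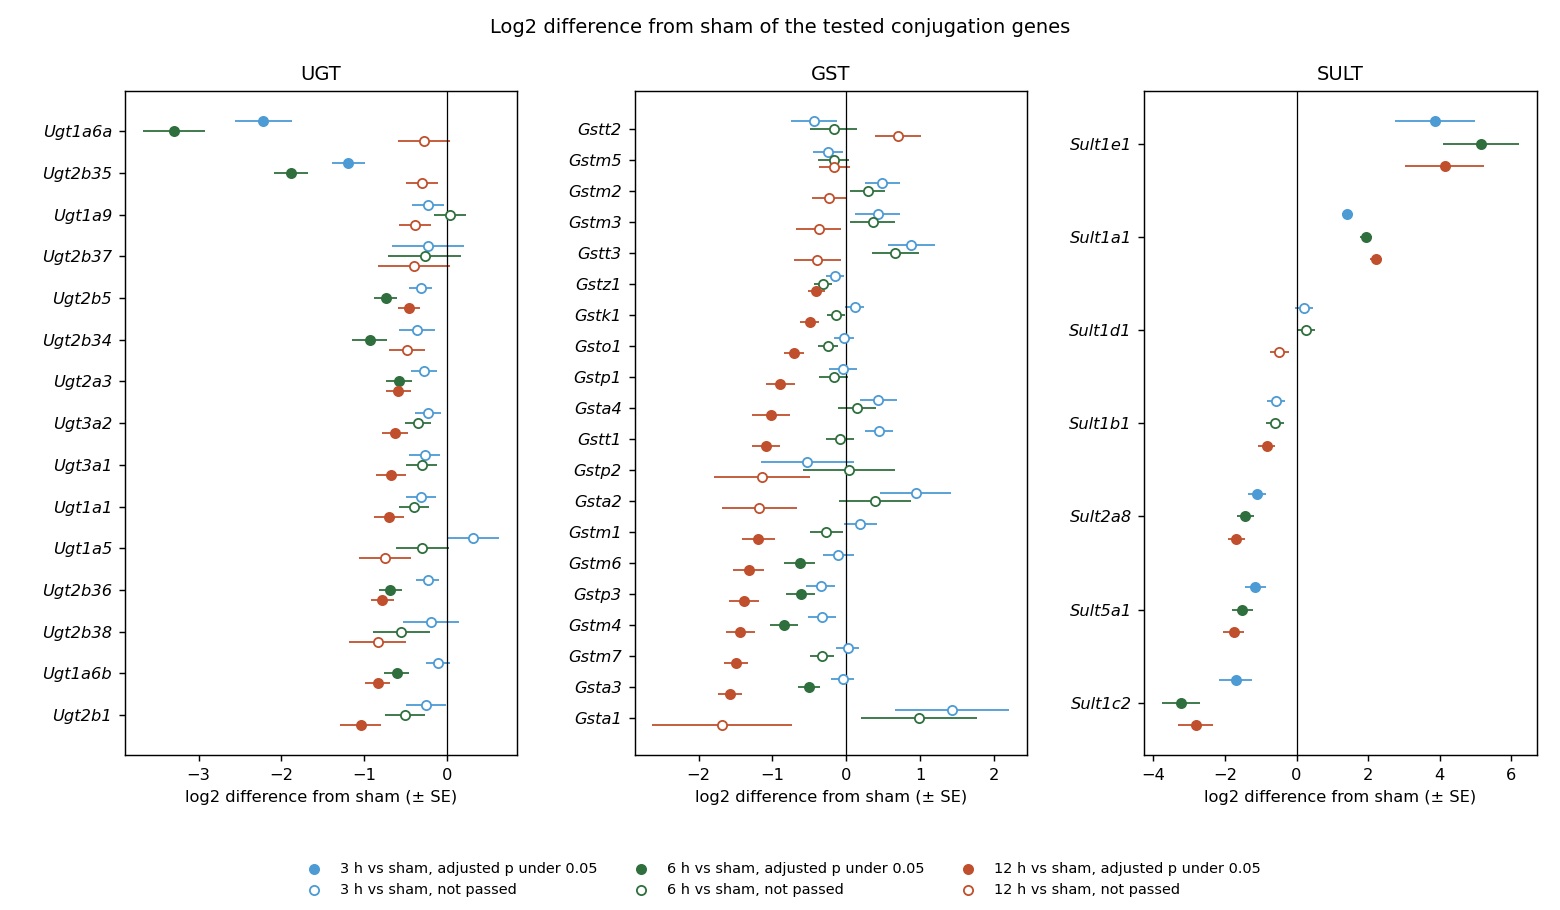
Log2 difference from sham (x axis, ± SE) of the 42 tested members (y axis) at 3 h, 6 h and 12 h, with 1 panel per family; filled points passed the edgeR test at an adjusted p under 0.05 and open points did not. All 15 UGT and 19 of 20 GST points at 12 h lie left of 0, while Sult1a1 and Sult1e1 lie right of 0 at every time.

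Among the UGT genes, 0 rose against sham at any time, while 2 of 15 fell at 3 h, 7 at 6 h and 8 at 12 h, beside 11.7%, 18.2% and 15.3% of all tested genes lower. Without Ugt1a6a it was 1, 6 and 8 of 14. The 2 of 15 at 3 h are near the share of all tested genes. The median log2 difference of the 15 UGT genes was -0.26, -0.56 and -0.63 in that order. A pair of UGT genes, Ugt1a6a and Ugt2b35, was low at 3 h and 6 h and overlapped with sham at 12 h. The 3 h differences of all tested UGT genes but Ugt1a5 lay below 0, and the number that passed as lower at 3 h was 2 to 7 over the alternative settings, with Ugt2b5 and Ugt2b36 among those that passed with library totals. Without sham replicate 1 the UGT median was -0.08 at 3 h and -0.43 at 12 h.

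Ugt1a6a (ENSMUSG00000054545, chromosome 1, 88134809 to 88218997) belongs to the isoform group that conjugates simple phenols. It stood at 5.595, 3.17 and 2.15 FPKM in the sham libraries, 0.915, 0.596 and 0.888 at 3 h, 0.391, 0.226 and 0.512 at 6 h and 3.48, 2.88 and 2.65 at 12 h. All 3 h and 6 h libraries lay below every sham library, and the 12 h libraries overlapped with sham. The log2 difference from sham was -2.22 ± 0.34 at 3 h, -3.30 ± 0.37 at 6 h and -0.28 ± 0.32 at 12 h, and that of 12 h from 6 h was 3.02 ± 0.37. It reached 1 FPKM only in sham and 12 h libraries, so these differences are a description.

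Ugt2b35 (ENSMUSG00000035811, chromosome 5, 87000860 to 87013275) was also low at 3 h and 6 h, at a higher level per length. Its sham libraries held 98.3, 65.4 and 57.7 FPKM, the 3 h libraries 35.6, 27.8 and 36.1, the 6 h libraries 21.7, 17.2 and 22.1 and the 12 h libraries 51.5, 61.8 and 67.2. Again no 3 h or 6 h library reached the lowest sham value, and 12 h and sham overlapped. The differences from sham were -1.19 ± 0.20 (edgeR adjusted p = 9.46e-04) at 3 h, -1.88 ± 0.20 (edgeR adjusted p = 1.50e-05) at 6 h and -0.30 ± 0.20 (edgeR adjusted p = 0.27) at 12 h. Between 6 h and 12 h it rose by 1.58 ± 0.20 (edgeR adjusted p = 1.33e-04), and it kept this rise and both early falls in all 22 alternative settings.

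**Figure D3:**
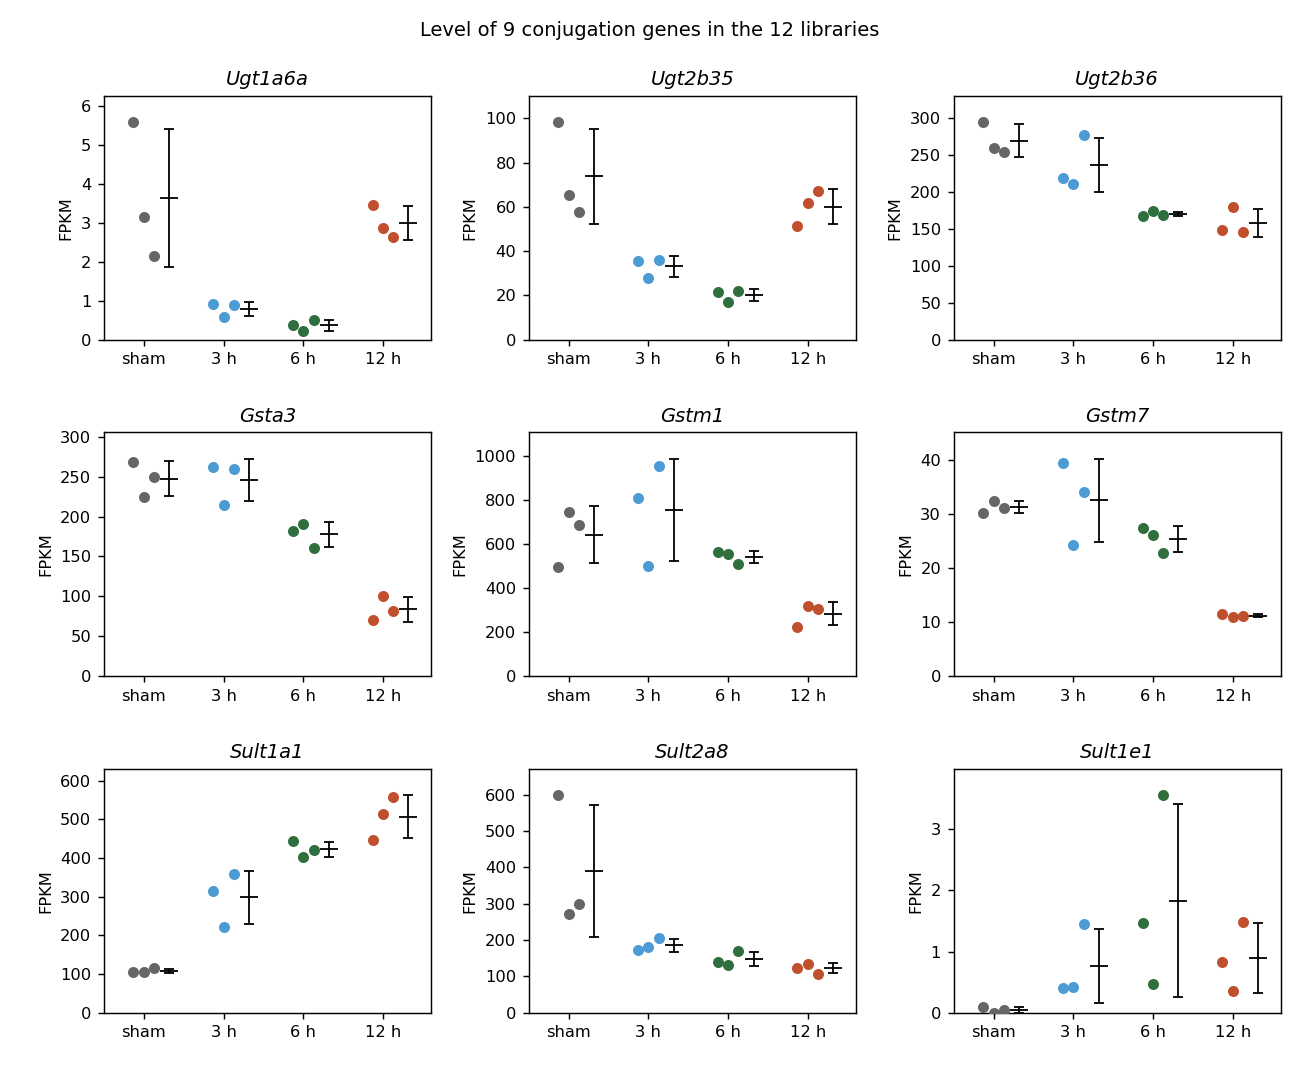
FPKM (y axis) of 9 members in the sham, 3 h, 6 h and 12 h groups (x axis); points are libraries and bars show the mean ± SD of 3 libraries. Ugt1a6a and Ugt2b35 are lowest at 6 h, Gsta3, Gstm1 and Gstm7 are lowest at 12 h, and Sult1a1 and Sult2a8 move apart from 3 h onwards.

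Since these 2 genes moved together, the 250 bases before their RefSeq starts are shown, read 5′ to 3′ on the gene's strand, with matches to 6 searched motifs in capitals. The Ugt1a6a stretch is chr1:88134559-88134808, + strand, and the Ugt2b35 stretch is chr5:87000610-87000859, + strand, both on GRCm38.p6. Motifs were searched on both strands: the antioxidant response element core TGACNNNGC, the D-box TTANGTAA, the STAT site TTCNNNGAA (GAS element), the xenobiotic response element core GCGTG, the HNF1 motif GTTAAT and the TATA box TATAAA. The HNF1 motif used here is only a part of the full HNF1 site, and the full site was not searched.
Ugt1a6a: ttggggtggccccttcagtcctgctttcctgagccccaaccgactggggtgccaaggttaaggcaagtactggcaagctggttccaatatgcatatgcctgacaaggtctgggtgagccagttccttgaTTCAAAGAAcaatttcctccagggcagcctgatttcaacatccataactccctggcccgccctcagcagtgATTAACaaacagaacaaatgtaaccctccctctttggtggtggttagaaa
Ugt2b35: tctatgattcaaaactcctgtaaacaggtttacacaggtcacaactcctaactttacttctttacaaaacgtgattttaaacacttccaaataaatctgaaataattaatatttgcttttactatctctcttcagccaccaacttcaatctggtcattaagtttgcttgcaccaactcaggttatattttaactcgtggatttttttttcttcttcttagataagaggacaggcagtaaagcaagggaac
The capitals in Ugt1a6a mark a GAS element that starts 121 bases before the start and an HNF1 motif on the other strand at 50 bases. None of the 6 motifs was found in the Ugt2b35 stretch, which says only that these letters are not in this window. Over all 32851 RefSeq promoters of this length, 7.02% held the GAS element and 6.43% the HNF1 motif, beside 5.26% and 21.1% of the 38 tested members with a RefSeq entry.

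The most abundant UGT genes fell less far. Ugt2b5 (ENSMUSG00000054630), one of the Ugt2b genes that act on steroids and bile acids, held 476, 386 and 396 FPKM in sham, 298, 335 and 405 at 3 h, 250.2, 254 and 263 at 6 h and 286, 323 and 313 at 12 h. Its 6 h and 12 h libraries lay below all sham libraries, with differences of -0.74 ± 0.14 (edgeR adjusted p = 9.56e-04) and -0.46 ± 0.14 (edgeR adjusted p = 0.0229). The 12 h call was lost without 12 h replicate 1, at -0.41 (edgeR adjusted p = 0.0822), and without 12 h replicate 3, at -0.47 (edgeR adjusted p = 0.0636). Ugt2b36 (ENSMUSG00000070704) went from 295, 259.9 and 254 FPKM in sham to 168, 174 and 169 at 6 h and 148, 180.2 and 145 at 12 h, with 219.7, 211 and 278 at 3 h. It fell by 0.69 ± 0.14 (edgeR adjusted p = 0.0018) at 6 h and by 0.78 ± 0.14 (edgeR adjusted p = 0.00122) at 12 h on the log2 scale, and its 6 h and 12 h libraries lay below all sham libraries. Ugt2b1 (ENSMUSG00000035836) fell later: it held 500.3, 311 and 337 FPKM in sham, 249, 416 and 323 at 3 h, 300.0, 197 and 324 at 6 h and 162, 226 and 172 at 12 h, and only the 12 h difference of -1.05 ± 0.25 (edgeR adjusted p = 0.00658) passed.

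Ugt2b34 (ENSMUSG00000029260) was lower at 6 h alone among the 3 comparisons with sham. Its libraries held 159, 92.9 and 86.4 FPKM in sham, 80.7, 103 and 85.4 at 3 h, 61.6, 54.2 and 63.8 at 6 h and 66.8, 95.9 and 80.3 at 12 h, and the 6 h difference was -0.94 ± 0.22 (edgeR adjusted p = 0.00432). Ugt1a6b (ENSMUSG00000090145), the neighbour of Ugt1a6a, was still low at 12 h: 17.5, 12.2 and 14.8 FPKM in sham and 13.8, 13.1 and 15.6 at 3 h were followed by 9.88, 9.67 and 10.2 at 6 h and 8.86, 8.87 and 7.33 at 12 h. It differed from sham by -0.61 ± 0.15 (edgeR adjusted p = 0.00586) at 6 h and -0.84 ± 0.15 (edgeR adjusted p = 0.00116) at 12 h. Ugt1a1, the bilirubin-conjugating enzyme, passed only at 12 h, at -0.70 ± 0.18 (edgeR adjusted p = 0.0114), going from 33.2 ± 8.96 FPKM (mean ± SD, n = 3 libraries) to 20.6 ± 2.25. Ugt3a1 and Ugt3a2, which use other UDP sugars as donors, also passed only at 12 h, with log2 differences of -0.68 ± 0.18 and -0.63 ± 0.16, and Ugt2a3 was lower at 6 h and 12 h by 0.58 ± 0.16 and 0.59 ± 0.16. The 12 h call was lost for Ugt1a1 without 12 h replicate 2, for Ugt3a1 without 12 h replicate 3 and for Ugt2a3 without 12 h replicate 1. Ugt1a5, Ugt1a9, Ugt2b37 and Ugt2b38 did not pass against sham at any time.

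The Ugt1a genes on chromosome 1 (88055388 to 88220002) use the same last exons, so 50.3% to 82.7% of the exon bases of the 5 tested ones also lie in another gene. Their levels per length and the split of reads among them are therefore uncertain. Ugt2b5 shared 41.7% of its 50-base stretches with other genes, mainly Ugt2b38, while Ugt2b35 shared 0.303% and Ugt2b1 none. Of the 13 members in the block of Ugt2 and Sult1 genes on chromosome 5 (86889767 to 87591594), 11 were tested. At 12 h 5 of them fell and 1 rose, beside 15.3% of all tested genes lower and 13.5% higher. The 1 that rose is Sult1e1, which entered the test through its high groups and is a description only.

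Most GST genes that fell passed only at 12 h. Of 20 tested genes, 0 passed in either direction at 3 h, 4 fell at 6 h and 12 fell at 12 h, and none of the 20 passed as higher at any time against sham, beside 11.7%, 18.2% and 15.3% of all tested genes lower. The 4 of 20 at 6 h are near that share. Over the alternative settings 1 to 8 passed as lower at 6 h and 10 to 14 at 12 h. The median log2 difference was -0.01 at 3 h, -0.17 at 6 h and -1.05 at 12 h. From 6 h to 12 h 13 of the 20 fell and 0 rose, with a median of -0.75, against 12.6% of all tested genes lower and 12.1% higher. This count was 4 to 15 over the alternative settings, with 4 for library totals. In the same step 6 of 10 hepatocyte markers fell (3 to 6 over the settings), with a median of -0.59. At 3 h the unadjusted p was under 0.05 for 2 of the 20 genes, DESeq2 called 1 higher (Gstt3), and limma on log2(FPKM + 1) called 0. Of all tested genes 9.81% were higher and 11.7% lower at 3 h even at an adjusted p under 0.05. The 2 of 20 thus do not exceed the background. Without 3 h replicate 2, 5 GST genes passed as higher at 3 h (Gsta1, Gsta2, Gsta4, Gstt1 and Gstt3).

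Gsta3 (ENSMUSG00000025934, chromosome 1, 21240589 to 21265661), an alpha-class enzyme that conjugates reactive epoxides, was the third most abundant GST gene. It held 268, 225 and 249 FPKM in sham, 263, 215 and 259.9 at 3 h, 182, 191 and 160.3 at 6 h and 69.9, 99.9 and 81.1 at 12 h. The 3 h and sham libraries overlapped, the 6 h libraries lay below all sham libraries and the 12 h libraries lay below all 6 h libraries. The difference from sham was -0.05 ± 0.15 (edgeR adjusted p = 0.853) at 3 h, -0.50 ± 0.15 (edgeR adjusted p = 0.0205) at 6 h and -1.57 ± 0.16 (edgeR adjusted p = 1.80e-05) at 12 h. Between 6 h and 12 h it fell by 1.07 ± 0.15 (edgeR adjusted p = 3.11e-04). The 6 h call was lost without 6 h replicate 3, at -0.43 (edgeR adjusted p = 0.0811).

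Gst genes are textbook targets of NRF2, which binds antioxidant response elements, so the 250 bases before the Gsta3 start (chr1:21240335-21240584, + strand, GRCm38.p6) are given as the tested gene with the largest 12 h fall that passed in its family.
Gsta3: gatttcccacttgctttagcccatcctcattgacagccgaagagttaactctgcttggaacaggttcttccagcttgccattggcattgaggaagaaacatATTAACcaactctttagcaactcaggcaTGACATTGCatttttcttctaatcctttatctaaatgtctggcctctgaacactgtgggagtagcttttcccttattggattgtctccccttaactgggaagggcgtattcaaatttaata
Capitals mark an antioxidant response element core 121 bases before the start and, on the other strand, an HNF1 motif at 149 bases. The core was found in 2 of the 38 tested members with a RefSeq promoter, Gsta3 and Gstm5 (5.26%), and in 10.2% of all promoters. Gstm5 did not pass at any time, with 5.14 ± 0.813 FPKM in sham and 4.63 ± 0.731 at 12 h.

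The mu-class genes lie together on chromosome 3 (107895821 to 108044894), where all 7 were tested. At 12 h 4 of them fell, beside 15.3% of all tested genes lower, and the median log2 difference of the 7 was -1.19. Gstm1 (ENSMUSG00000058135), the second most abundant GST gene, held 495, 743 and 685 FPKM in sham, 809.8, 499 and 954 at 3 h, 562, 552 and 511 at 6 h and 224, 320.5 and 306 at 12 h. Only its 12 h libraries lay apart from sham, with a difference of -1.19 ± 0.23 (edgeR adjusted p = 0.00186). Gstm7 (ENSMUSG00000004035) lay in a narrow range at 12 h: 30.2, 32.4 and 31.2 FPKM in sham and 39.4, 24.2 and 34.1 at 3 h became 27.4, 26.1 and 22.7 at 6 h and 11.5, 11.01 and 11.1 at 12 h. It differed from sham by -0.33 ± 0.16 (edgeR adjusted p = 0.134) at 6 h, which did not pass, and by -1.49 ± 0.16 (edgeR adjusted p = 3.88e-05) at 12 h.

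Gstm4 (ENSMUSG00000027890) and Gstm6 (ENSMUSG00000068762) were already lower at 6 h. Gstm4 held 31.2, 31.4 and 27.8 FPKM in sham, 30.5, 18.3 and 25.1 at 3 h, 19.5, 18.2 and 13.7 at 6 h and 11.2, 12.96 and 9.58 at 12 h, with differences of -0.84 ± 0.19 (edgeR adjusted p = 0.00419) at 6 h and -1.43 ± 0.20 (edgeR adjusted p = 1.98e-04) at 12 h. Gstm6 held 38.6, 55.6 and 48.1 FPKM in sham, 49.1, 30.8 and 56.2 at 3 h, 35.99, 31.3 and 26.4 at 6 h and 17.3, 20.2 and 19.8 at 12 h. It differed by -0.63 ± 0.21 (edgeR adjusted p = 0.0301) at 6 h and -1.32 ± 0.21 (edgeR adjusted p = 5.61e-04) at 12 h. The 6 h call of Gstm6 was lost without sham replicate 2 or 3 or 6 h replicate 2 or 3, down to -0.50 (edgeR adjusted p = 0.116) without sham replicate 2, and with the replicate number as a block, at -0.63 (edgeR adjusted p = 0.0526). Gstm2, Gstm3 and Gstm5 of the same cluster did not pass at 12 h, at -0.23 ± 0.24, -0.37 ± 0.31 and -0.16 ± 0.21, and their libraries overlapped with sham at each time.

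The pi-class genes lie on chromosome 19 (4035407 to 4059446). Gstp1 (ENSMUSG00000060803), which conjugates small electrophiles and was the most abundant member of all 3 families, held 818, 1254 and 1427 FPKM in sham, 1097, 1111 and 1289 at 3 h, 1051, 1020.4 and 1100.1 at 6 h and 524, 766 and 606 at 12 h. Its 12 h libraries lay below all others, and the difference from sham was -0.90 ± 0.20 (edgeR adjusted p = 0.00431), after -0.17 ± 0.19 (edgeR adjusted p = 0.535) at 6 h. Gstp3 (ENSMUSG00000058216) went from 21.2, 23.9 and 22.9 FPKM in sham and 21.6, 14.96 and 18.4 at 3 h to 13.97, 18.4 and 12.8 at 6 h and 7.25, 8.805 and 10.2 at 12 h. It fell by 0.62 ± 0.19 (edgeR adjusted p = 0.0241) at 6 h and by 1.39 ± 0.20 (edgeR adjusted p = 2.75e-04) at 12 h. The 6 h call of Gstp3 was lost without sham replicate 2 or 3 or 6 h replicate 1 or 3, with values down to -0.51 (edgeR adjusted p = 0.0946) without 6 h replicate 3. Gstp2, between them, stood at 4.09 ± 3.32 FPKM in sham and 1.87 ± 0.626 at 12 h and did not pass.

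The other classes took part as well at 12 h. Gstt1, a theta-class enzyme that acts on small halogenated compounds, was at 98.9 ± 13.5 FPKM in sham and 46.9 ± 5.78 at 12 h, a difference of -1.09 ± 0.19 (edgeR adjusted p = 0.00113). Gsta4, which removes hydroxynonenal, an aldehyde from lipid peroxidation, went from 23.6 ± 1.02 to 11.7 ± 2.26 FPKM, at -1.02 ± 0.26 (edgeR adjusted p = 0.0102). Smaller falls passed for Gsto1, an omega-class reductase (-0.71 ± 0.14), Gstk1 of mitochondria and peroxisomes (-0.50 ± 0.13), and Gstz1, the maleylacetoacetate isomerase of tyrosine breakdown (-0.41 ± 0.12). The Gstz1 call was lost without 12 h replicate 2 or 12 h replicate 3, and that of Gstk1 without 12 h replicate 3. Gstt2 was the only GST gene above 0 at 12 h, with 5.59, 10.7 and 6.54 FPKM in sham and 15.6, 10.8 and 10.99 at 12 h. Its difference of 0.70 ± 0.31 (edgeR adjusted p = 0.11) did not pass.

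Gsta1 and Gsta2, alpha-class genes known to be inducible, varied widely among the 3 h libraries. Gsta2 held 8.45, 5.98 and 7.42 FPKM in sham, 10.3, 4.59 and 28.6 at 3 h, 7.28, 12.6 and 9.13 at 6 h and 2.298, 4.699 and 2.71 at 12 h. Gsta1 held 0.923, 0.675 and 0.653 FPKM in sham, 1.42, 0.138 and 4.81 at 3 h, 1.25, 0.95 and 2.39 at 6 h and 0.283, 0.286 and 0.117 at 12 h. In both genes 3 h replicate 2 was the lowest and 3 h replicate 3 the highest library of its group, and the 12 h libraries lay below all sham libraries. Gsta1 reached 1 FPKM only in 3 h and 6 h libraries, and its difference of -2.67 ± 0.91 from 6 h to 12 h is a description. Gsta2 did not pass against sham, at -1.18 ± 0.51 (edgeR adjusted p = 0.0997) at 12 h, but fell from 6 h to 12 h by 1.56 ± 0.51 (edgeR adjusted p = 0.0395). That fall was lost in 9 of the 22 alternative settings, among them the fits without any 1 of the 6 h libraries or without 12 h replicate 1 or 3. The 12 h difference of Gsta2 from sham passed without 3 h replicate 2, without 3 h replicate 3, with DESeq2, with no filter and with only the 6 libraries compared.

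Shared sequence makes some GST values uncertain. Of the 50-base stretches in the transcripts of Gsta1, 90.5% also occur in another gene, as do 49.8% for Gsta2, 33.7% for Gstp1, 54.3% for Gstp2, 28.8% for Gstm3 and 18.9% for Gstm1. For Gsta3, Gstm4, Gstm7, Gstp3 and Gstt1, which fell at 12 h, the share was 0.532% or less. Of the 10 hepatocyte markers, 6 were lower at 12 h (3 to 6 over the alternative settings), with a median log2 difference of -0.52, and their summed level was 24952 to 26422 FPKM against 38771 to 40901 in sham. At 3 h and at 6 h 0 of the 10 were lower and 1 was higher, with medians of 0.24 and 0.06. Of the other cell types, 4 of 4 tested neutrophil markers were higher at 3 h, 3 at 6 h and 2 at 12 h, with summed levels of at most 19.6 FPKM and Ly6g, the defining neutrophil gene, at 0.16 FPKM or less. In sham all 7 listed neutrophil markers summed to only 1.65 to 2.31 FPKM. Tested ones can thus have entered the test through the groups where they are high, so these neutrophil counts are a description only. Of 3 tested cholangiocyte markers, 2, 3 and 1 were higher at 3 h, 6 h and 12 h, with sums of 18.5 to 21.2 FPKM in sham and 22.6 to 30.4 at 12 h. At 12 h 3 of 8 Kupffer cell and macrophage, 2 of 8 endothelial, 1 of 8 stellate cell and 4 of 5 tested red blood cell markers were lower, and 1, 1, 1 and 0 were higher. At 3 h 0, 3, 2 and 2 of these were higher and 0 lower. Of all tested genes 9.81%, 16.8% and 13.5% were higher and 11.7%, 18.2% and 15.3% lower at 3 h, 6 h and 12 h, and 1 of 8 is near the 12 h shares. The part of these cell types in the falls was not tested, and in bulk liver fewer cells of a type and less RNA per cell cannot be told apart.

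Among the SULT genes, 2 of 7 tested genes rose and 3 fell at 3 h and 6 h, and 2 rose and 4 fell at 12 h. Of all tested genes 9.81%, 16.8% and 13.5% were higher and 11.7%, 18.2% and 15.3% lower at these times. Without Sult1c2 and Sult1e1, 1 of 5 rose at each time, and 2, 2 and 3 fell. Sult1a1 and Sult2a8, the most abundant, moved in opposite directions. The medians of the 7 were -0.57, -0.61 and -0.84, and without sham replicate 1 they were -0.14, -0.17 and -0.41.

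Sult1a1 (ENSMUSG00000030711, chromosome 7, 126672865 to 126676432), the main phenol sulfotransferase of liver, rose at each time. It held 105, 106 and 114 FPKM in sham, 316, 223 and 358 at 3 h, 443, 403 and 421 at 6 h and 447, 515 and 559 at 12 h. No library after resection overlapped with sham. The rise from sham was 1.42 ± 0.16 (edgeR adjusted p = 5.54e-05) at 3 h, 1.93 ± 0.17 (edgeR adjusted p = 2.46e-06) at 6 h and 2.21 ± 0.17 (edgeR adjusted p = 2.09e-06) at 12 h on the log2 scale. The step of 0.51 ± 0.16 (edgeR adjusted p = 0.065) from 3 h to 6 h did not pass, nor did that of 0.28 ± 0.16 (edgeR adjusted p = 0.222) from 6 h to 12 h.

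Sult2a8 (ENSMUSG00000030378, chromosome 7, 14410686 to 14446769), a liver sulfotransferase for bile acids, fell at each time. Its levels were 599, 272 and 298 FPKM in sham, 172, 180.1 and 205 at 3 h, 141, 131 and 169 at 6 h and 124, 135 and 108 at 12 h. Every library after resection lay below every sham library, and sham replicate 1 was far above the other sham libraries. The differences were -1.11 ± 0.25 (edgeR adjusted p = 0.00583) at 3 h, -1.43 ± 0.25 (edgeR adjusted p = 6.06e-04) at 6 h and -1.68 ± 0.25 (edgeR adjusted p = 3.57e-04) at 12 h. Without sham replicate 1 they were -0.66 (edgeR adjusted p = 0.00429), -0.98 (edgeR adjusted p = 1.24e-04) and -1.23 (edgeR adjusted p = 3.50e-05). The other 7 Sult2a genes of the same cluster on chromosome 7 were not tested, as none reached 1 FPKM in 3 libraries.

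As a share of the summed SULT FPKM, Sult2a8 made up between 63.0% and 75.2% in sham libraries. Its share lay between 31.4% and 39.3% at 3 h, between 21.9% and 24.9% at 6 h, and between 15.1% and 20.1% at 12 h. Sult1a1 made up 13.2% to 24.5%, 48.6% to 58.0%, 61.9% to 68.9% and 72.5% to 78.6% in the same order. The summed SULT FPKM itself did not separate the groups, as given above.

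**Figure D4:**
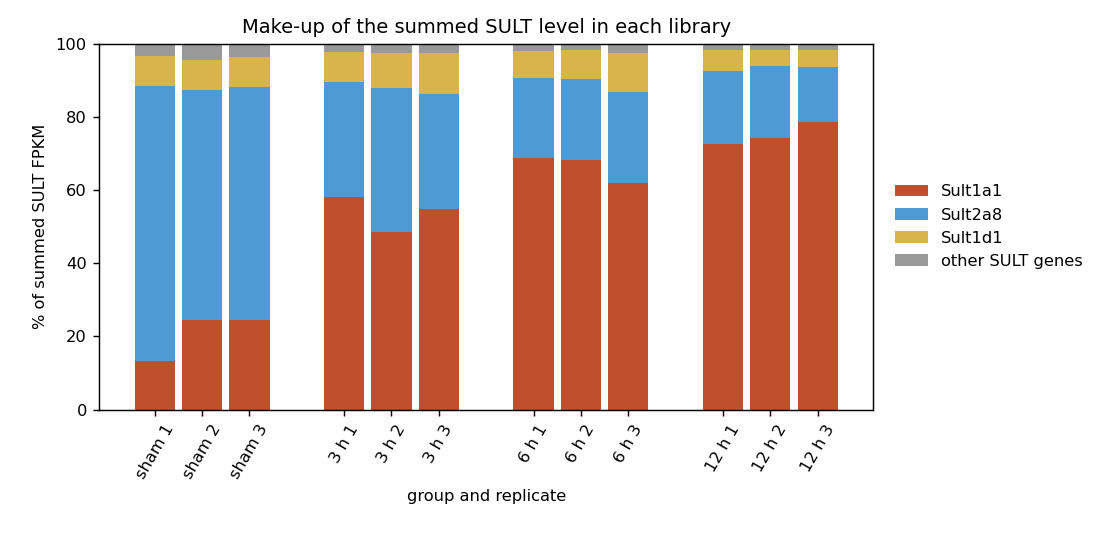
Percent of the summed SULT FPKM (y axis) held by Sult1a1, Sult2a8, Sult1d1 and all other SULT genes in each of the 12 libraries (x axis, group and replicate). Sult2a8 holds at least 63.0% in each sham library and Sult1a1 at least 48.6% in each library after resection.

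Because these genes moved in opposite directions, the 250 bases before each RefSeq start are shown in the same way, chr7:126676419-126676668, - strand for Sult1a1 and chr7:14446588-14446837, - strand for Sult2a8 (GRCm38.p6). The RefSeq start of Sult2a8 lies 182 bases from the start in the deposited table.
Sult1a1: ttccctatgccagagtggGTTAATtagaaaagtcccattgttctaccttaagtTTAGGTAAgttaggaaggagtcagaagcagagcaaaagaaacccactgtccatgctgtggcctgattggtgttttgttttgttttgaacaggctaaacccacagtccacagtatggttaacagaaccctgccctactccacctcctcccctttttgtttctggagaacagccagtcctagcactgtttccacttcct
Sult2a8: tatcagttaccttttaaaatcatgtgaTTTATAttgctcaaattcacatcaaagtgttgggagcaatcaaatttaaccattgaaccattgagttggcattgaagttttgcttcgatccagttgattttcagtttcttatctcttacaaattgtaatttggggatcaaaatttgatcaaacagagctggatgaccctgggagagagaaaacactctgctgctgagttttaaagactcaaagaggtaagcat
In Sult1a1 the capitals mark an HNF1 motif 232 bases and a D-box 197 bases before the start. In Sult2a8 they mark a TATA box sequence on the other strand at 223 bases. The D-box, the site of the clock-controlled PAR bZIP factors, was found in 3 of the 38 tested members with a promoter (Sult1a1, Ugt1a9 and Ugt2b1, 7.89%) and in 2.06% of all promoters, and the TATA box in 10.5% and 12.4%. A match is a sequence description and not a measured site.

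Sult1e1 (ENSMUSG00000029272), the estrogen sulfotransferase, was nearly silent in sham. It was listed at 0.0948, 0 and 0.0419 FPKM in sham, 0.397, 0.424 and 1.46 at 3 h, 1.47, 0.47 and 3.56 at 6 h and 0.828, 0.353 and 1.49 at 12 h, so that it passed the filter only through the libraries after resection and no p is given. The sham libraries held 3 counts in all, against 42 at 3 h, 95 at 6 h and 60 at 12 h. Scaled for depth, the counts were 16.3 times as high at 3 h (95% Clopper-Pearson interval 5.22 to 82.4), 39.5 times at 6 h (13.1 to 195) and 19.9 times at 12 h (6.50 to 99.4). The counts were pooled over the libraries of a group, so the intervals cover counting error only and leave out the spread between libraries. They are a description and not a test.

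Sult1c2 and Sult5a1 were low-level SULT genes with their highest values in sham. Sult1c2 (ENSMUSG00000023122), a sulfotransferase of small phenols, held 3.67, 1.86 and 1.89 FPKM in sham, 0.902, 0.714 and 0.717 at 3 h, 0.381, 0.141 and 0.279 at 6 h and 0.234, 0.653 and 0.152 at 12 h. Its log2 differences were -1.70 ± 0.46, -3.23 ± 0.53 and -2.82 ± 0.49, and -1.31 at 3 h without sham replicate 1. It reached 1 FPKM only in the sham libraries, so these are a description. Sult5a1 (ENSMUSG00000000739), a family member with few known substrates, held 3.94, 6.45 and 6.28 FPKM in sham, 2.498, 1.94 and 3.29 at 3 h, 1.96, 1.22 and 2.77 at 6 h and 1.33, 1.86 and 1.799 at 12 h. All libraries after resection lay below sham in both genes. For Sult5a1 the differences were -1.15 ± 0.29 (edgeR adjusted p = 0.0114), -1.52 ± 0.29 (edgeR adjusted p = 0.00127) and -1.75 ± 0.29 (edgeR adjusted p = 7.95e-04), with the 3 h call lost without 3 h replicate 2, at -0.99 (edgeR adjusted p = 0.0554).

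Sult1d1 (ENSMUSG00000029273), which sulfates catecholamines and other phenols, was the third most abundant SULT gene and did not pass against sham at any time. It held 63.99, 34.96 and 38.1 FPKM in sham, 44.5, 44.02 and 74.4 at 3 h, 47.5, 46.1 and 73.2 at 6 h and 34.6, 31.1 and 33.3 at 12 h. All its 12 h libraries lay below its 6 h libraries, but the log2 difference of -0.73 did not pass. It did pass with DESeq2, no filter, filterByExpr and only the 6 libraries compared. The same held without sham replicate 1, sham replicate 2 or 3 h replicate 3. Its neighbour Sult1b1, which acts on thyroid hormones, went from 12.7 ± 5.9 FPKM in sham to 7.12 ± 0.455 at 12 h. Its differences were -0.57 ± 0.25 (edgeR adjusted p = 0.123) at 3 h, -0.61 ± 0.25 (edgeR adjusted p = 0.0745) at 6 h and -0.84 ± 0.25 (edgeR adjusted p = 0.022) at 12 h, of which the last passed. Leaving out 12 h replicate 1 or 12 h replicate 3 ended the call.

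Between 3 h and 6 h few members passed, though 35 of 42 differences lay below 0, with a median of -0.28 (UGT -0.36, GST -0.26 and SULT -0.04) against 0.01 for all tested genes. From 3 h to 6 h 0 rose and 1 fell, Ugt2b35 at -0.69 ± 0.20 (edgeR adjusted p = 0.047), against 4.45% of all tested genes higher and 4.18% lower. The call did not hold in 13 of the 22 alternative settings, while DESeq2 called 1 member higher and 8 lower, as did edgeR without sham replicate 1, and 4 were lower without 3 h replicate 2. From 6 h to 12 h 2 members rose, Ugt1a6a and Ugt2b35, and 13 fell, all of them GST genes (1 and 12 of the 38 present in every group), against a background of 12.1% higher and 12.6% lower. With libraries scaled to their total counts the split was 6 higher and 4 lower (Gsta3, Gsta4, Gstm7 and Gstt1), and the median log2 difference of all tested genes was 0.26. Without sham replicate 1 it was 4 higher and 18 lower. Between 6 h and 12 h 8 members were lower without 6 h replicate 1, 6 without 6 h replicate 2, 5 without 12 h replicate 1 and 7 without 12 h replicate 3.

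Genes that supply the conjugating enzymes were called in both directions. Of 17 tested genes for cofactor supply, 3 were higher and 4 lower at 3 h (9.81% and 11.7% of all tested genes), 5 and 6 at 6 h (16.8% and 18.2%), and 2 and 5 at 12 h (13.5% and 15.3%). Papss2, which makes the sulfate donor PAPS, was at 94.6, 46.5 and 46.2 FPKM in sham and 20.3, 17.4 and 13.3 at 12 h, a difference of -1.88 ± 0.27 (edgeR adjusted p = 2.48e-04). Gclc, the catalytic subunit of the enzyme that limits glutathione synthesis, fell at each time, by 0.93 ± 0.19, 1.57 ± 0.20 and 1.44 ± 0.19 on the log2 scale, from 120.1, 84.1 and 86.4 FPKM in sham to 25.9, 30.97 and 43.2 at 6 h. Mat1a, which makes the methyl donor S-adenosylmethionine, rose by 1.64 ± 0.17, 2.49 ± 0.18 and 2.30 ± 0.18, and Slc35b1, a nucleotide transporter of the endoplasmic reticulum, rose at 6 h and 12 h by 1.22 ± 0.17 and 1.21 ± 0.17. Cth, which makes cysteine for glutathione, was higher at 3 h by 0.79 ± 0.22, a call lost without sham replicate 3 or 3 h replicate 3. Over the 17 genes the median log2 difference was 0.12, 0.03 and -0.16.

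**Figure D5:**
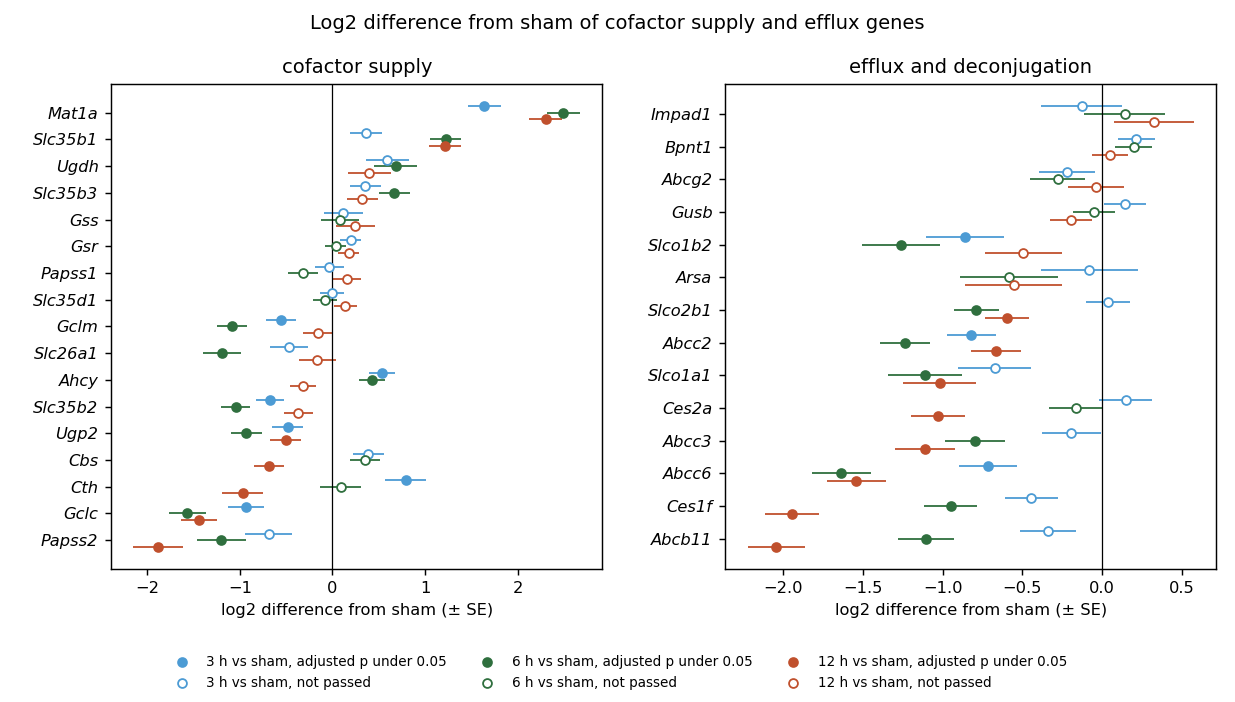
Log2 difference from sham (x axis, ± SE) of the 17 tested cofactor supply genes and the 14 tested efflux and deconjugation genes (y axis) at 3 h, 6 h and 12 h; filled points passed the edgeR test at an adjusted p under 0.05. Cofactor genes lie on both sides of 0, and all filled points of the efflux panel lie left of 0.

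Of 14 tested efflux and deconjugation genes, 0 were higher at any time, and 3, 8 and 8 were lower at 3 h, 6 h and 12 h, beside 11.7%, 18.2% and 15.3% of all tested genes, with medians of -0.21, -0.79 and -0.63. Abcc2, the canalicular exporter of glucuronides and glutathione conjugates, differed by -0.82 ± 0.15, -1.24 ± 0.16 and -0.67 ± 0.15. Abcb11, the bile salt export pump, did not pass at 3 h and differed by -1.10 ± 0.18 and -2.04 ± 0.18 at 6 h and 12 h. Abcc6 fell by 0.71 ± 0.18, 1.64 ± 0.18 and 1.54 ± 0.18, and the uptake carrier Slco1b2 by 0.86 ± 0.24 at 3 h and 1.26 ± 0.24 at 6 h. Leaving out any single 3 h library ended the 3 h call of Slco1b2. Ces1f, a carboxylesterase, was lower by 1.94 ± 0.17 at 12 h.

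The other phase II enzymes, 15 tested genes, were higher in 3, 3 and 3 cases and lower in 1, 4 and 5 at 3 h, 6 h and 12 h. Of all tested genes 9.81%, 16.8% and 13.5% were higher and 11.7%, 18.2% and 15.3% lower, and 3 of 15 at 6 h is near that share. Nnmt, which methylates nicotinamide, went from 19.8, 35.3 and 28.97 FPKM in sham to 482, 503 and 496 at 6 h, a difference of 4.11 ± 0.22 (edgeR adjusted p = 8.16e-08). As3mt, the arsenite methyltransferase, rose by 0.64 ± 0.17 at 3 h and 0.87 ± 0.17 at 6 h, and Baat, which joins bile acids to amino acids, by 0.56 ± 0.16 at 3 h. Inmt, another methyltransferase, fell by 0.53 ± 0.17, 1.33 ± 0.17 and 2.91 ± 0.18, and the microsomal transferase Mgst3 by 1.23 ± 0.39 at 12 h. The 3 h calls of As3mt and Baat were lost without 3 h replicate 3, and that of Baat also without sham replicate 2 or 3. The 3 h call of Inmt was lost in 13 of the 22 alternative settings, and that of Mgst3 at 12 h in 6.

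Of the 26 regulators of these genes, all tested, 6 were higher and 7 lower at 3 h, 4 and 10 at 6 h, and 2 and 4 at 12 h. Of all tested genes 9.81%, 16.8% and 13.5% were higher and 11.7%, 18.2% and 15.3% lower at these times. The 4 higher at 6 h (1 to 5 over the alternative settings) and the 4 lower at 12 h are at the background. The 2 higher at 12 h lie below it. Nr1i3, the xenobiotic receptor CAR, held 3.84, 5.54 and 5.76 FPKM in sham, 3.58, 3.88 and 3.71 at 3 h, 2.21, 1.69 and 1.17 at 6 h and 10.5, 7.51 and 6.06 at 12 h. It differed from sham by -1.61 ± 0.25 (edgeR adjusted p = 2.93e-04) at 6 h and rose by 2.26 ± 0.26 (edgeR adjusted p = 5.42e-05) from 6 h to 12 h. Nr0b2, the bile acid-induced repressor SHP, differed by -1.79 ± 0.29 and -1.79 ± 0.29 at 6 h and 12 h, and Stat5b, which carries the growth hormone signal, by -1.71 ± 0.16 at 12 h. Ahr, the receptor for dioxins, was higher at 3 h, 6 h and 12 h by 1.25 ± 0.27, 0.84 ± 0.27 and 1.48 ± 0.27, with the 6 h call lost in 6 of the 22 alternative settings, among them the fits without sham replicate 2, sham replicate 3, 6 h replicate 1 or 6 h replicate 3, while the liver factor Cebpa was lower at 3 h by 1.24 ± 0.28 and Cebpb higher by 1.56 ± 0.52, a call that was lost in 12 of the 22 alternative settings.

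Other target genes of these receptors, 13 tested, were higher in 6, 6 and 3 cases and lower in 2, 3 and 4 at 3 h, 6 h and 12 h. Of all tested genes 9.81%, 16.8% and 13.5% were higher and 11.7%, 18.2% and 15.3% lower, and the 2 and 3 lower at 3 h and 6 h are near that share. Cyp2b10, the classical CAR target, held 0.947, 1.27 and 0.739 FPKM in sham, 16.6, 7.58 and 9.43 at 3 h, 7.75, 10.9 and 9.83 at 6 h and 1.49, 0.233 and 0.0265 at 12 h. It rose by 3.46 ± 0.62 (edgeR adjusted p = 0.0015) at 3 h and 3.24 ± 0.62 (edgeR adjusted p = 0.00123) at 6 h. Tiparp, a target of AHR, rose by 2.45 ± 0.42 and 3.15 ± 0.43, and Hmox1, which breaks down haem, by 2.90 ± 0.42 and 2.10 ± 0.41 at 3 h and 6 h. At 12 h Cyp2c55, Cyp1a2 and Nqo2 were lower by 2.05 ± 0.36, 1.78 ± 0.17 and 1.62 ± 0.22.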

How the data were processed

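Per the submitters' processing notes, DESeq2 1.20.0, featureCounts 1.5.0-p3, HISAT2 2.0.5, fastp and CASAVA 1.8 are named, with the build GRCm38 (mm10), and their roles are not stated. Libraries were made from poly(A) RNA with a NEBNext Ultra kit, per the labels' protocols. The deposited table holds raw counts and FPKM per library. From the values, the deposited FPKM are counts divided by gene length and an effective library size. The strand setting and the treatment of reads in shared exons are not given in the sources used here.

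Counts were tested with edgeR 4.0.16 (R 4.3.3, limma 3.58.1), quasi-likelihood, TMM scaling, 1 model of 4 groups over 12 libraries, 2-sided, with Benjamini-Hochberg adjustment over 11451 genes and a threshold of 0.05. Tested genes had 1 FPKM or more in 3 or more libraries and held at least 99.1% of the counts of each library. Log2 differences are given with their standard errors (the difference divided by the root of F). The biological coefficient of variation was 20.6%. The test was run on simulated data first. Members and lists were chosen with earlier results of these data known.

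Genes described in full were, per family, up to 3 called rises and falls per comparison with sham, the 3 highest mean FPKM, and up to 2 called per direction between successive times. Of each context list, up to 3 called genes per comparison are described, except 1 gene that is not reported here. Other members are named with values to account for the family. Replicates were grouped by title, and no pair of libraries agreed within sampling noise. Promoters came from RefSeq (GRCm38.p6), which matched 57 of the 65 members, and shared 50-base stretches from GENCODE M21 transcripts. The alternatives were library totals, TMM without mitochondrial and acute phase genes, DESeq2 1.42.0, limma on log2(FPKM + 1) and log2(FPKM + 0.1), no filter, filterByExpr, only the 6 libraries compared, a replicate block, and libraries left out. Python 3.11.15 with pandas 2.3.3 was used for the tables.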

Additional observations from a re-analysis of the deposited data

How the results depend on the processing

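Of 50 called values of the 22 genes described in full, 34 kept their call and direction in all 22 alternative settings, and no value reversed. The 50 and the 34 include calls of genes whose differences are a description here. These genes are Ugt1a6a, Sult1c2, Sult1e1 and, among the 50 only, Gsta1. Scaling by library totals gave 11 lower members at 3 h, 23 at 6 h and 6 between 3 h and 6 h, and 6 higher and 4 lower between 6 h and 12 h. TMM without mitochondrial and acute phase genes and DESeq2 kept all 50 calls. Between 3 h and 6 h DESeq2 gave 1 higher and 8 lower, no filter 6 lower, only the 6 libraries compared 4 lower, the fit without sham replicate 1 and 6 h replicate 3 together 6 lower, and limma with either pseudocount and filterByExpr 0 lower. With limma on log2(FPKM + 1) 1 member was higher at 3 h and 1 at 12 h. No filter gave 6 higher members at 3 h and 4 higher between 6 h and 12 h, as did only the 6 libraries compared for the latter. For counts under an alternative setting, here, above and below, the share of all tested genes called in that setting is not given. Such counts show only how far a count moved with the setting, and are not a result about the members.

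Libraries that share a replicate number did not vary together: of 18 pairs, 4 had a correlation of deviations over 0.1, and the range was -0.25 to 0.17. With the replicate block 0 members were lower between 3 h and 6 h, and the counts were 2 higher and 5 lower at 3 h, 2 and 13 at 6 h, and 2 and 24 at 12 h.

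Leaving out a single library gave 1 to 7 higher and 3 to 6 lower members at 3 h, 2 to 3 and 11 to 14 at 6 h, and 1 to 2 and 19 to 25 at 12 h. It gave 0 to 1 higher and 0 to 8 lower between 3 h and 6 h, and 2 to 4 higher and 5 to 18 lower between 6 h and 12 h. The count over the 4 groups was 24 to 36. The number of libraries, 3 a group, limits the precision.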

Other observations

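Pseudogenes that share sequence with GST genes were also listed with values. The pseudogene Gstp-ps on chromosome 1 (192073820 to 192074450) was listed at 178 ± 16.996 FPKM in sham, 169 ± 18.9 at 3 h, 174 ± 28.9 at 6 h and 106 ± 17.7 at 12 h (SD, n = 3 libraries). It was lowest in the 12 h group, as Gstp1 was. Gstm2-ps1 on chromosome 5 (116632908 to 116633564) was at 21.4 ± 4.97 FPKM in sham and 9.39 ± 2.56 at 12 h. Whether these reads came from the pseudogenes or from the parent genes cannot be told from the deposited counts.

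Sult2a7, a member below the filter, was listed at up to 1.65 FPKM in a 12 h library and did not pass the filter. It reached 1 FPKM only in 12 h libraries. With edgeR's filterByExpr in place of the filter it was called higher at 12 h against sham. As it is highest in the 12 h group, this is a description only.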
